A study of Caenorhabditis elegans with 36 samples.

Results

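Small RNA was examined at 10 Caenorhabditis elegans genes whose proteins carry cargo along cilia. They are the intraflagellar transport genes ift-20, ift-74, ift-81, osm-5 and osm-6 and the BBSome genes bbs-1, bbs-2, bbs-5, bbs-8 and bbs-9, taken by their WormBase symbols, with bbs-5 as WBGene00010974. All 10 were found among the 31003 genes of the adult table and among the 46740 genes of each embryo table. The set was chosen by the adult small RNA counts of ift-20 and bbs-5, which were higher in nip2nip3 than in wild type, and the question is whether that gain extends to the rest of the pathway. The adult values of ift-20 and bbs-5 are therefore given as a description, with no test.

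The study looked at candidate factors, named nip1, nip2 and nip3 in the labels, for inherited RNA silencing in worms grown on HB101 bacteria. Adult small RNA came from whole animals of wild type (wt, replicates 1 and 3, n = 2), of the strain labelled nip2nip3 (n = 3) and of nip3_qe17 (n = 3), with qe17 read here as an allele label. The titles of these adult samples start with YA, read here as young adult. Embryo small RNA came from mixed early stages of wt and of a strain labelled nipnip2, each as input (n = 2) and as an immunoprecipitate (IP, n = 2) of FLAG-tagged NRDE3, a nuclear Argonaute protein of somatic cells, taken with anti-FLAG M2. One wt input is labelled whole animal and carries no tag or antibody label. Whether replicates are separate cultures is not stated, and the p-values cover the spread among these libraries alone, which may be technical.

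Cilia in this worm are found on sensory neurons, where they hold the receptors and channels for smell, taste and touch. Particles of the IFT-B and IFT-A complexes are moved outward by kinesins and back by dynein, and the BBSome rides on them and helps to keep the particles and membrane cargo together. The worm also makes small RNAs antisense to many of its own transcripts, which Argonaute proteins bind and use to silence genes, so a count here is small RNA assigned to a gene and not its messenger RNA. Library preparation was 5′-independent, which lets in small RNAs with a triphosphate end. In whole animals, fewer cells of a type and less small RNA per cell cannot be told apart.

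Adult libraries held 6362077 to 10962202 counts, embryo inputs 1149734 to 2200941 and IP libraries 2957534 to 5957024. Levels are CPM, counts scaled to a common library size after TMM normalisation, and a gene was called when its adjusted p in edgeR was under 0.05. The scaling matters in these data: the median log2 fold change of all tested genes was 0.05 in nip2nip3 and 0.01 in nip3_qe17 against wt with TMM, -0.27 and -0.26 with library totals, and -0.49 and -0.46 with microRNA counts as the scale. The split of all called genes in nip2nip3 moved with it, from 3638 higher and 3525 lower to 2233 higher and 5962 lower with library totals and to 1547 higher and 7351 lower with microRNA scaling. For nip3_qe17 the split moved from 2959 higher and 3176 lower to 1830 higher and 5051 lower, and to 1374 higher and 6961 lower. Replicate 1 of nip3_qe17 was farther from replicates 2 and 3 than these were from each other, with a chi-square per degree of freedom of 56.9 and 48.7 against 10.7, and replicate 1 of nip2nip3 stood apart likewise, at 22.1 and 22.6 against 4.65. Genes of other cells also moved, where 21.9% of all tested genes were called higher in nip2nip3 and 17.8% in nip3_qe17. Of major sperm protein genes, 30 of 30 tested rose in each adult mutant, with median log2 fold changes of 1.67 in nip2nip3 and 1.44 in nip3_qe17. Their summed level over 31 genes was 132 to 162 CPM in wt, 442 to 514 in nip2nip3 and 383 to 423 in nip3_qe17, with none at 0 in any group. The part of this in the results below was not tested.

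In adults, ift-20 and bbs-5 were among the genes with the largest gains in nip2nip3, while the other 8 members stayed below 6 CPM in every library and had group means of at most 1.08 CPM per kilobase of gene span. ift-20 was higher in both mutants, and bbs-5 was higher in nip2nip3 but lower in nip3_qe17. Of the other 8 members, bbs-1 fell and osm-6, at few counts, rose in both mutants, and 6 had too few counts to pass the filter.

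IFT-20 is a small subunit of IFT-B, and in mammals its counterpart is also found at the Golgi. The gene lies on chromosome I at 5100751 to 5101732 of the ce11 build (WBcel235), a span of 982 bases. ift-20 had 14 and 12 counts in the wt libraries, 2132, 2521 and 4056 in nip2nip3, and 192, 566 and 576 for nip3_qe17. The 3 groups did not overlap, with nip2nip3 highest and wt lowest. Its level was 1.60 ± 0.273 CPM in wt (SD, n = 2), 374 ± 37.0 in nip2nip3 (n = 3) and 46.7 ± 11.3 in nip3_qe17 (n = 3). The log2 fold change against wt was 7.86 (SE 0.29) in nip2nip3, a fold of 233 and rank 2 of 16585 tested genes. In nip3_qe17 it was 4.87 (SE 0.28), rank 9, and nip2nip3 stood 2.99 (SE 0.17) above nip3_qe17 on the log2 scale, rank 32. Replicate 1 of nip3_qe17 was the lowest of its group at 33.7 CPM against 53.6 and 52.8 in replicates 2 and 3, and the wt libraries were at 1.79 and 1.41 CPM.

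BBS-5 is a BBSome subunit whose mammalian counterpart binds phosphoinositide lipids of the membrane. The gene lies on chromosome III at 10258831 to 10261782, a span of 2952 bases. bbs-5 had 619 and 642 counts in wt, 3503, 3771 and 5459 in nip2nip3, and 180, 317 and 358 for nip3_qe17. The groups did not overlap, and unlike ift-20 the order was nip2nip3, wt and then nip3_qe17. Its level was 77.3 ± 2.82 CPM in wt (SD, n = 2), 556 ± 7.17 in nip2nip3 (n = 3) and 31.5 ± 1.38 in nip3_qe17 (n = 3). The log2 fold change against wt was 2.85 (SE 0.11) in nip2nip3, rank 145 from the highest, and -1.30 (SE 0.10) in nip3_qe17, rank 1855 from the lowest. Between the mutants it was 4.14 (SE 0.10) in favour of nip2nip3, rank 14. Per kilobase of gene span, the level of ift-20 was 1.63 CPM in wt, 381 in nip2nip3 and 47.6 in nip3_qe17, and that of bbs-5 was 26.2, 188 and 10.7. So bbs-5 carried the denser small RNA of the pair in wt, and ift-20 in both mutants.

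**Figure D1:**
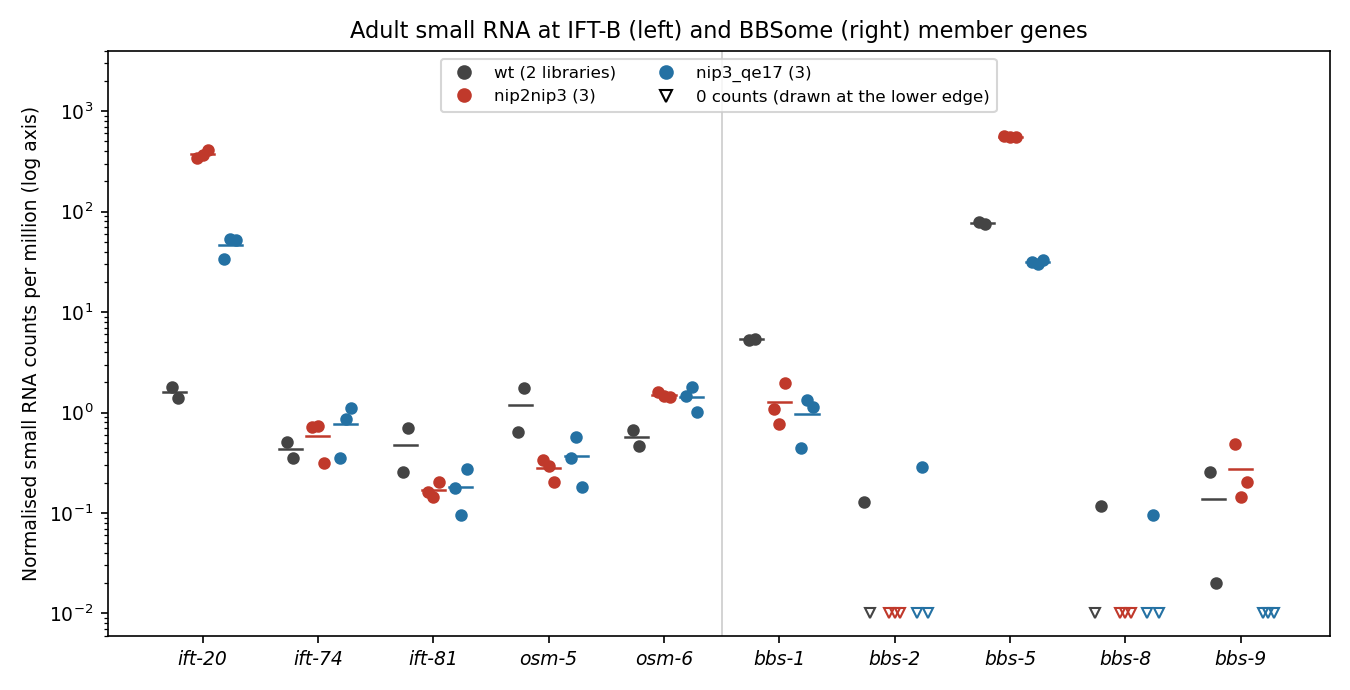
Level of each member in each adult library, in CPM on a log axis, with short bars at group means where no library of the group was at 0. ift-20 reached 374 and bbs-5 556 CPM on average in nip2nip3, while the other 8 genes lay below 6 CPM in all 8 libraries.

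The other 8 members gave little signal. Together they had 60.25 and 75.67 counts in the wt libraries, 24.25 to 42.18 in nip2nip3 and 15.75 to 53.17 in nip3_qe17, so their sum was highest in wt although the mutant libraries of replicate 3 were deeper. That order rests largely on bbs-1. This gene alone had 41 and 46.5 counts in wt, against 5.25 to 19.08 in nip2nip3 and 2.5 to 14.17 in nip3_qe17. All 10 members were listed in the adult table, and 4 passed edgeR's filter on low counts, which 65.0% of listed protein-coding genes passed. Those 4 include ift-20 and bbs-5, which had at least 12 and 180 counts in every adult library. Of protein-coding genes, 7657 of 16367 had an adult mean below 20 counts, so low counts are common.

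OSM-6 is the worm counterpart of IFT52, a core subunit of IFT-B. Its gene shares 33 bases with R31.2, which had 444.25 to 459 counts in wt and was called in neither mutant with TMM. Counts of osm-6 held fractions in 2 of 8 adult libraries. How many of its reads come from the shared bases was not tested. osm-6, on chromosome V at 11924621 to 11927446, had 5.25 and 4 counts in wt, 10, 10 and 14 in nip2nip3, and 8.25, 19 and 11 for nip3_qe17. Both mutant groups lay above wt in CPM, at 1.495 ± 0.094 (SD, n = 3) and 1.42 ± 0.397 (n = 3) against 0.571 ± 0.144 (n = 2). osm-6 rose by a log2 fold change of 1.41 (SE 0.46) in nip2nip3, with an adjusted p of 0.0324 in the edgeR quasi-likelihood test with Benjamini-Hochberg adjustment over all 16585 genes. In nip3_qe17 the log2 fold change was 1.32 (SE 0.46, adjusted p = 0.0456, edgeR). Neither call was stable: in nip2nip3 the adjusted p was 0.115 with DESeq2, 0.0768 with library totals, 0.143 with microRNA scaling and 0.104 or 0.182 without wt replicate 1 or 3. It also missed the threshold without any 1 of the nip2nip3 replicates 1, 2 and 3, at 0.0601, 0.0607 and 0.0610 (edgeR). In nip3_qe17 it was 0.152 with DESeq2, 0.0965 with library totals and 0.150 with microRNA scaling. There it was also 0.134 and 0.230 without wt replicate 1 or 3, 0.0653 and 0.134 without nip3_qe17 replicate 1 or 2, and 0.0548, 0.0609 and 0.0605 without nip2nip3 replicate 1, 2 or 3.

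BBS-1 is a BBSome subunit whose mammalian counterpart contacts the small GTPase that recruits the complex to membranes. bbs-1, on chromosome I at 14371138 to 14376086, had 41 and 46.5 counts in wt, 6.75, 5.25 and 19.08 in nip2nip3, and 2.5, 14.17 and 12.5 for nip3_qe17. Every mutant library lay below both wt libraries. Its level was 5.35 ± 0.143 CPM in wt (SD, n = 2), 1.26 ± 0.615 in nip2nip3 (n = 3) and 0.976 ± 0.476 in nip3_qe17 (n = 3). bbs-1 fell by 2.0 on the log2 scale in nip2nip3 (SE 0.42, adjusted p = 0.0035, edgeR) and by 2.39 in nip3_qe17 (SE 0.42, adjusted p = 0.0014, edgeR). Its counts held fractions in 7 of 8 adult libraries, so part of its signal comes from reads that the counting divided among features or positions, and its level is uncertain to that extent.

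Among the 8 members other than ift-20 and bbs-5, 1 was called higher and 1 lower in each mutant against wt. The background was high: 43.2% of all tested genes were called in nip2nip3 and 37.0% in nip3_qe17, and the 2 groups did not overlap for 66.5% and 59.1% of them. Against that background the calls at osm-6 and bbs-1 are not a result about the members as a set. Between nip2nip3 and nip3_qe17, where 4.19% of genes were called and groups did not overlap for 24.5%, neither was called: osm-6 differed by 0.09 (SE 0.35, adjusted p = 0.928, edgeR) and bbs-1 by 0.39 (SE 0.47, adjusted p = 0.706, edgeR) on the log2 scale. Neither had an unadjusted p under 0.05, at 0.808 and 0.424, and no alternative fit called either, DESeq2 included. This does not show that their levels were alike in the mutants.

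The 6 members that did not pass the filter had at most 15 counts in any adult library. IFT-74 and IFT-81, whose human counterparts together bind tubulin, are IFT-B subunits. ift-74 had 4 and 3 counts in wt, 4.5, 5 and 3.1 in nip2nip3 and 2, 9 and 12.2 for nip3_qe17, with overlapping groups. ift-81, on the X chromosome, had 2 and 6 counts in wt and 1 to 3 in every mutant library, and it shares 5040 bases with ags-3, so reads of the pair cannot be told apart without strand. OSM-5, the counterpart of IFT88, is also encoded on the X. osm-5 had 5 and 15 counts in wt, 2.11, 2 and 2 in nip2nip3 and 2, 6 and 2 for nip3_qe17, and both mutant groups lay below wt in CPM. When no filter was applied, osm-5 fell by 2.16 on the log2 scale in nip2nip3 with an adjusted p of 0.0416 (edgeR), and in nip3_qe17 its log2 fold change was -1.67 with an adjusted p of 0.0996 (edgeR). Lower small RNA was common on that chromosome: 56.2% of tested X-linked protein-coding genes were called lower in nip2nip3 and 56.7% in nip3_qe17.

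BBS-2 and BBS-9 are core subunits of the BBSome, and BBS-8 is a repeat protein of the same complex. bbs-2 had 1 and 0 counts in wt, 0 in all 3 nip2nip3 libraries and 0, 3 and 0 in nip3_qe17. bbs-8 had at most 1 count in any adult library, and 3 counts, the limit that a count of 0 allows, came to 0.122 CPM of the pooled nip2nip3 total, which covers counting error only. bbs-9 had 2 and 0.17 counts in wt, 3, 1 and 2 in nip2nip3 and 0 in all 3 nip3_qe17 libraries. Without a filter bbs-9 had an unadjusted p of 0.0263 between the mutants and an adjusted p of 0.306 (edgeR). A fall or a small change at bbs-2, bbs-8 or bbs-9 was not detectable at this depth. No mutant library had more than 3 counts at any of them, so none reached a level like that of ift-20 in the mutants.

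The small RNA of ift-20 and bbs-5 was compared with that of the genes beside them, since overlapping reads could be counted for either gene when the strand setting is not given in the sources used here. spe-5, a subunit of a proton pump needed for sperm formation, overlaps ift-20 by 68 bases. spe-5 had 22.25 and 39 counts in wt, 95, 140 and 238 in nip2nip3 and 44, 71 and 88 for nip3_qe17, in the same order of groups as ift-20. It rose by a log2 fold change of 2.43 (SE 0.27, adjusted p = 5.4e-05, edgeR) in nip2nip3, and nip2nip3 stood above nip3_qe17 by 1.42 (SE 0.21, adjusted p = 0.0036, edgeR). In nip3_qe17 against wt the log2 fold change was 1.01 (SE 0.28, adjusted p = 0.0163, edgeR), and this call was lost with library totals (0.73, adjusted p = 0.0645), with microRNA scaling (0.54, adjusted p = 0.158), without wt replicate 1 (0.71, adjusted p = 0.146) and without nip3_qe17 replicate 3 (0.94, adjusted p = 0.0511, edgeR). How many of the reads of spe-5 come from the shared bases was not tested.

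C30F8.3 lies 43 bases from ift-20 on the other side and was at 1.23 ± 0.076 CPM in wt (SD, n = 2), 3.04 ± 0.589 in nip2nip3 (n = 3) and 3.33 ± 0.623 in nip3_qe17 (n = 3). Its log2 fold change was 1.29 in nip2nip3 (SE 0.35, adjusted p = 0.0129, edgeR) and 1.41 in nip3_qe17 (SE 0.34, adjusted p = 0.0084, edgeR). The call in nip2nip3 was lost with microRNA scaling (0.75) and without wt replicate 1 or 3 (1.34 and 1.23). That in nip3_qe17 was lost without wt replicate 3 (1.35). chp-1, 1848 bases away, was called in neither mutant, with log2 fold changes of 0.27 and 0.34, and was called in nip2nip3 without replicate 3 of that group (0.48, adjusted p = 0.0485, edgeR).

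None of the neighbours of bbs-5 was called higher in nip2nip3 when all libraries were used. inpp-4B, a phosphoinositide phosphatase gene that overlaps bbs-5 by 20 bases, was at 59.9 ± 0.370 CPM in wt (SD, n = 2), 56.3 ± 3.15 in nip2nip3 (n = 3) and 63.2 ± 5.07 in nip3_qe17 (n = 3). Its log2 fold changes against wt were -0.09 (SE 0.10) and 0.08 (SE 0.10), and neither was called with TMM. It was called lower in nip2nip3 with library totals (-0.40) and microRNA scaling (-0.63), and the value in nip3_qe17 turned to -0.40 with microRNA scaling. rip-1, 89 bases away, was at 0.731 CPM in wt and 2.03 and 1.54 in the mutants, with log2 fold changes of 1.43 (SE 0.61) and 1.04 (SE 0.62), neither called by edgeR (adjusted p = 0.0813 and 0.218), and it was called in nip2nip3 without replicate 1 of that group (1.68, adjusted p = 0.0486, edgeR). cnk-1, 9474 bases away, fell by 0.45 in nip2nip3 (SE 0.13, adjusted p = 0.0182, edgeR) and was at -0.26 (SE 0.13) in nip3_qe17, not called. The call in nip2nip3 was lost without wt replicate 1 or 3 or nip2nip3 replicate 3 (adjusted p = 0.0821, 0.0820 and 0.0688, edgeR), and cnk-1 was called lower in nip3_qe17 with library totals (-0.54) and microRNA scaling (-0.74).

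**Figure D2:**
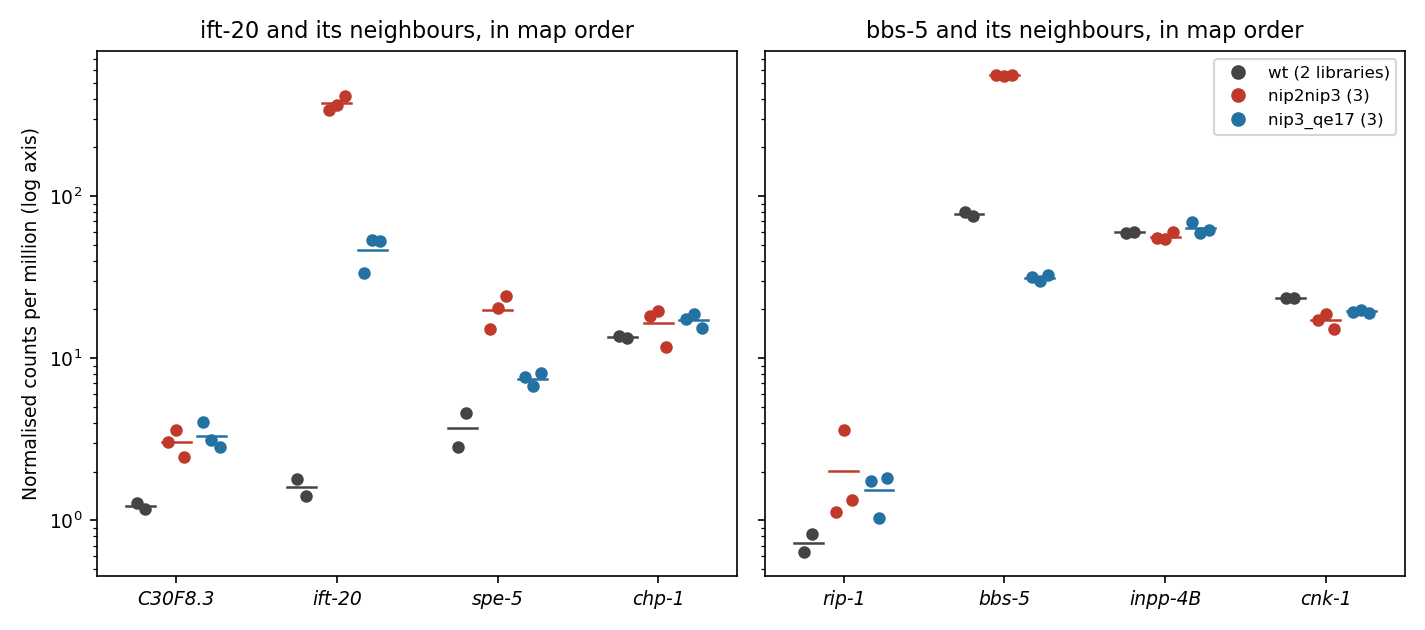
Level of ift-20 (left) and bbs-5 (right) and of their neighbouring genes in each adult library, in CPM on a log axis, with bars at group means. spe-5 lies above wt in both mutants, as ift-20 does, whereas inpp-4B stays between 54.1 and 68.9 CPM in all groups while bbs-5 runs from 30.05 to 562.

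A wider list of ciliary genes was used to ask whether small RNA rose over the pathway. Leaving out ift-20 and bbs-5 it holds 72 genes, of which 64 are listed in the adult table and 30 were tested. In nip2nip3, 10 of the 30 rose, 7 fell and 13 were not called, and their median log2 fold change was 0.02 against 0.05 over all tested genes. In nip3_qe17, 7 rose, 7 fell and 16 were not called, with a median of -0.11 against 0.01 for all. Beside these counts, 21.9% of all tested genes were called higher and 21.3% lower in nip2nip3, and 17.8% and 19.1% in nip3_qe17. The split of the list turned with the scale, to 7 higher and 11 lower with library totals and 4 and 12 with microRNA scaling in nip2nip3, and to 6 and 10 and 5 and 15 in nip3_qe17. Both comparisons use the same wt libraries.

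Among the other IFT-B genes tested, dyf-3, the counterpart of human CLUAP1, rose by 0.63 in nip2nip3 (SE 0.11, adjusted p = 9.8e-04, edgeR) and by 0.91 in nip3_qe17. With microRNA scaling its value in nip2nip3 was 0.09 and not called. osm-1, the counterpart of IFT172 on the X chromosome, fell by 1.63 and 1.66 in the mutants. The tested IFT-A genes, which serve the return journey, also split. ift-139 rose from 0.987 ± 0.235 CPM in wt (SD, n = 2) to 4.53 ± 1.12 in nip2nip3 (n = 3) and 4.23 ± 1.40 in nip3_qe17 (n = 3), log2 fold changes of 2.21 and 2.13. The X-linked ifta-1 had 104.5 and 87 counts in wt and 3 to 17 in the 6 mutant libraries, and fell by 3.50 (SE 0.39) and 3.52 (SE 0.38) on the log2 scale. ift-43 fell by 1.38 and 1.46, and dyf-2 was called in neither mutant.

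In the BBSome, the 2 tested genes other than bbs-5 both fell, where 21.3% of all tested genes were called lower in nip2nip3 and 19.1% in nip3_qe17. bbs-4, which encodes another subunit, had 171 and 206 counts in wt, 38, 46 and 78 in nip2nip3 and 39.67, 65 and 66.33 for nip3_qe17. All 6 mutant libraries lay below both wt libraries, as they did for bbs-1. Mutant and wt groups did not overlap for 66.5% of all tested genes in nip2nip3 and 59.1% in nip3_qe17. bbs-4 fell by 1.72 (SE 0.17, adjusted p = 2.2e-05, edgeR) in nip2nip3 and by 1.86 (SE 0.17) in nip3_qe17. In nip2nip3 bbs-5 lay above wt while bbs-1 and bbs-4 lay below it, and in nip3_qe17 all 3 lay below wt.

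Of the ciliary kinesin genes, osm-3, which encodes the kinesin that moves particles along the outer part of the cilium, had 557.6 ± 1.90 CPM in wt (SD, n = 2), 1446 ± 89.3 in nip2nip3 (n = 3) and 1357 ± 93.9 in nip3_qe17 (n = 3). It rose by 1.38 and 1.28 on the log2 scale. The other ciliary kinesin is built from 3 genes: klp-11 fell by 1.14 and 0.89, klp-20 rose by 0.62 in nip2nip3 (0.31 and not called with library totals, 0.08 with microRNA scaling), and kap-1 rose by 1.44 in nip2nip3. klp-20 and kap-1 were not called in nip3_qe17. Between the mutants 2.72% of all genes were called higher in nip2nip3 and 1.47% lower. Of the 30 ciliary genes 1 was called, higher in nip2nip3: kap-1, at 16.3 ± 2.07 against 6.92 ± 0.833 CPM (SD, n = 3 each; log2 fold change 1.25, adjusted p = 0.0018, edgeR).

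At the transition zone, the gate at the base of the cilium, 3 of 9 tested genes rose in nip2nip3 and none fell, and 3 rose and 1 fell in nip3_qe17. The shares of all tested genes were 21.9% higher and 21.3% lower in nip2nip3, and 17.8% and 19.1% in nip3_qe17. The median log2 fold change of the 9 genes was 0.06 and -0.10, near the 0.05 and 0.01 of all tested genes. ccep-290 rose by 1.55 and 1.58, mksr-2 by 0.98 and 1.37 and mks-1 by 0.65 and 0.62, and mks-6 fell by 0.72 in nip3_qe17, a call lost with DESeq2 and without any 1 of wt replicates 1 and 3 and nip3_qe17 replicates 2 and 3. With microRNA scaling, mks-1 was called in neither mutant (0.11 and 0.15) and mksr-2 only in nip3_qe17 (0.45 in nip2nip3). Of the 7 tested regulator and tubulin genes, dyf-18 rose by 0.87 and ccpp-1 fell by 0.40 in nip2nip3, with adjusted p of 0.0384 and 0.0379 (edgeR), and both calls were lost with DESeq2, without either wt library and without nip2nip3 replicate 2 or 3.

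**Figure D3:**
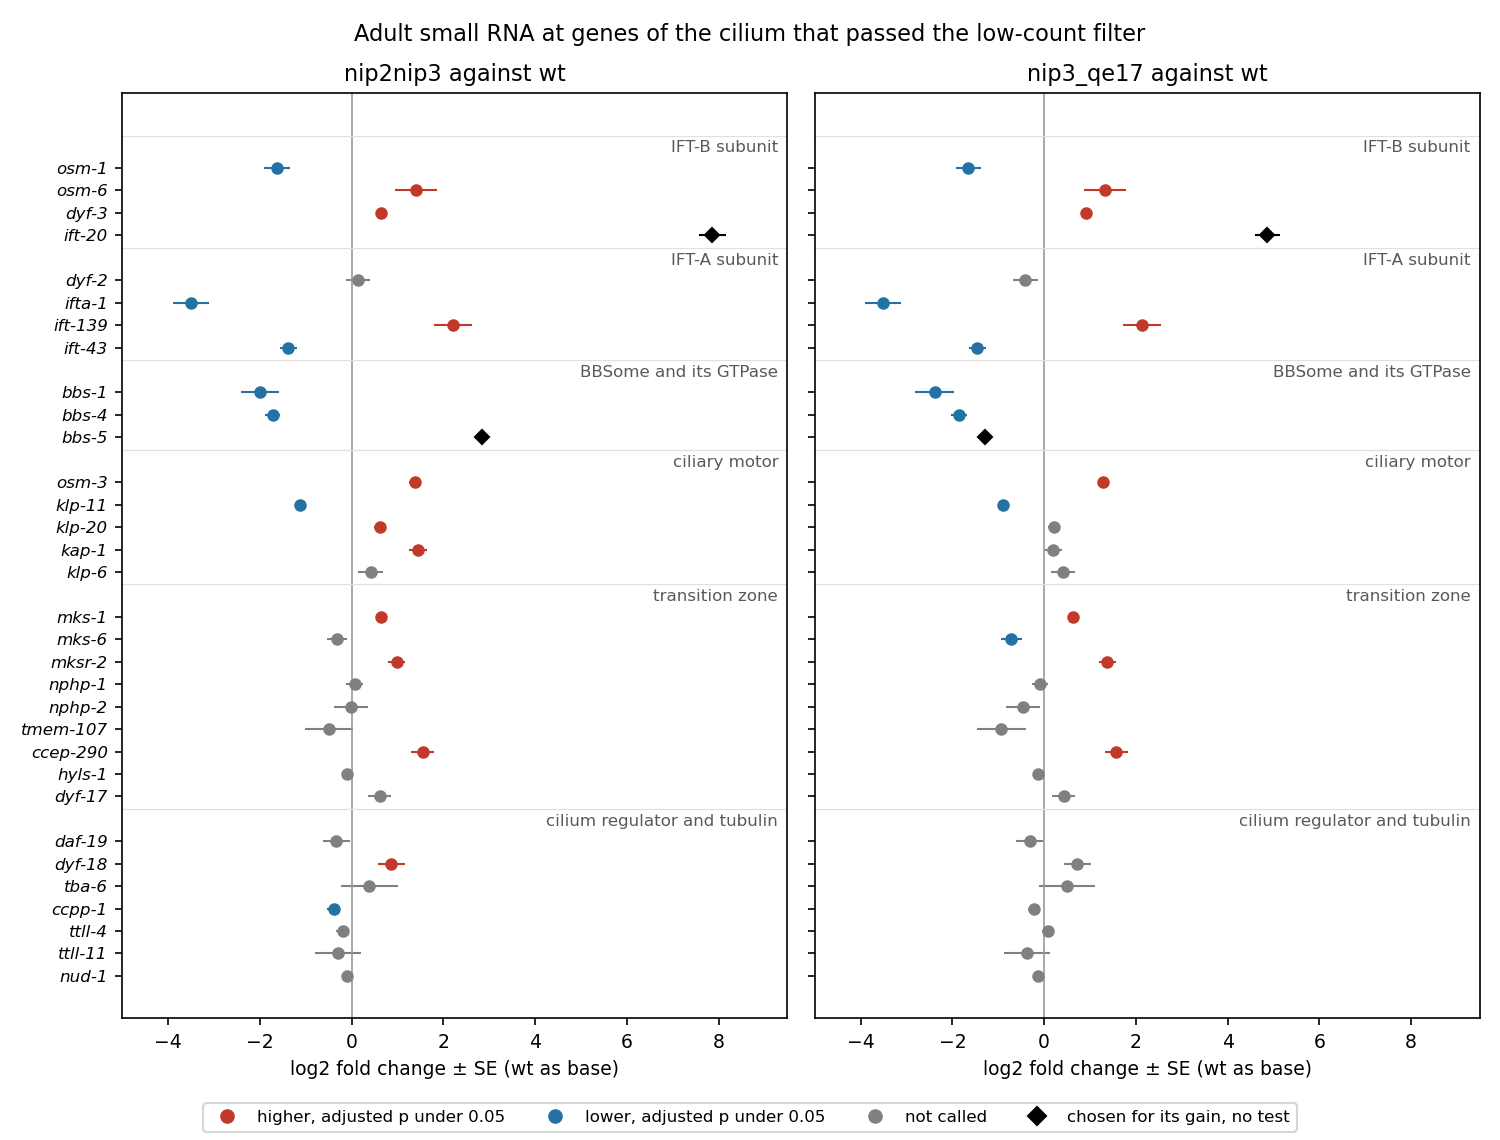
log2 fold change against wt, with its SE, of each ciliary gene that passed the low-count filter, by role, in nip2nip3 (left) and nip3_qe17 (right). Apart from ift-20 at 7.86 and 4.87 and bbs-5 at 2.85 and -1.30, values run from -3.50 (ifta-1) to 2.21 (ift-139) in nip2nip3 and lie on both sides of 0 in most roles.

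Both X-linked ciliary genes tested, osm-1 and ifta-1, fell, on a chromosome where 56.2% and 56.7% of tested protein-coding genes fell in the mutants. Of the 28 autosomal genes, 10 rose and 5 fell in nip2nip3 and 7 rose and 5 fell in nip3_qe17. Over all tested genes 21.9% were called higher and 21.3% lower in nip2nip3, and 17.8% and 19.1% in nip3_qe17, and these shares are also the background of the neuron counts that follow. Among genes of the neurons that carry cilia, of 4 tested genes for sensory channels and cyclases, 1 rose and 1 fell in each mutant. osm-9, a channel of the TRPV family, rose by 2.49 (SE 0.31) in nip2nip3 and 2.85 (SE 0.31) in nip3_qe17. The gene that fell was gcy-8, at most 17 counts in any adult library, by 2.46 (SE 0.52) and 2.55 (SE 0.51). Of 11 tested general neuron genes, 2 rose (egl-21 and unc-44) and 2 fell (ric-4 and unc-31) in nip2nip3. In nip3_qe17, 1 rose (unc-44) and 4 fell, among them ric-4, unc-31 and snb-1. There unc-44 was lost with library totals, unc-31 without either wt library and snb-1 with DESeq2. Between the mutants 2 of the 11 (egl-21 and unc-44) were called higher in nip2nip3 and 0 lower, beside 2.72% and 1.47% of all genes. With 1 library left out the log2 fold change ran from 2.35 to 2.48 for egl-21 and 0.51 to 0.62 for unc-44. The summed level of the 14 general neuron genes was 119.3 to 134 CPM in wt, 159 to 168 in nip2nip3 and 115 to 122 in nip3_qe17, and that of the 10 sensory genes 6.61 to 7.16, 11.3 to 11.9 and 12.6 to 16.9. Such sums weigh genes with many counts most. The median log2 fold change of the 11 tested general neuron genes was -0.23 in nip2nip3 and -0.37 in nip3_qe17. That of the 4 tested sensory genes was 0.20 and 0.55, against 0.05 and 0.01 over all tested genes. In each of these lists 1 gene was at 0 in wt and none in the mutants. Their part in the values of ift-20 and bbs-5 was not tested.

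Likeness was ranked over the 8 adult libraries among the 12440 genes whose mean reached 20 counts. The genes most like ift-20 by Pearson's r of log2 CPM were cht-2 (0.998), Y61A9LA.7 (0.997) and C28C12.1 (0.996). Y61A9LA.7 was at 1.958 ± 0.051 CPM in wt (SD, n = 2), 143 ± 12.5 in nip2nip3 (n = 3) and 22.3 ± 1.92 in nip3_qe17 (n = 3), in the same order of groups as ift-20. The genes most like bbs-5 were Y81G3A.4 (0.993), rdl-1 (0.991) and 21ur-5387 (0.984). rdl-1 was at 13.6 ± 1.80 CPM in wt (SD, n = 2), 223 ± 8.22 in nip2nip3 (n = 3) and 7.49 ± 0.382 in nip3_qe17 (n = 3). None of these 6 is in the ciliary lists. Farther down the ranking for bbs-5, egl-21 of the general neuron list was at rank 12 (0.973). The coefficients describe the order of 3 groups that share their libraries.

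In embryos the gain was not seen, although the mutant is another strain and the values are not set against those of adults. ift-20 had 3 and 15 counts in the wt inputs and 6 and 7 in nipnip2. bbs-5 had 13 and 15 counts in wt and 11 and 8 in nipnip2. The log2 fold change of nipnip2 against wt was -0.51 (SE 0.69, adjusted p = 0.821, edgeR) for ift-20 and -0.62 (SE 0.39, adjusted p = 0.512, edgeR) for bbs-5, and 6.38% of 8506 tested genes were called. For bbs-5 both nipnip2 libraries lay below both wt libraries, and groups did not overlap for 47.0% of tested genes. The wt libraries of ift-20 lay on either side of both nipnip2 libraries, and its value ran from -1.20 to 1.0 when 1 library was left out. Neither gene had an unadjusted p under 0.05 (0.479 and 0.151), and DESeq2 called neither.

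The other 8 members had 14 and 15 counts in all in the wt inputs and 10 and 8 in nipnip2, and none passed the filter, which 35.1% of protein-coding genes passed. bbs-2 had the most, with 8 and 6 counts in wt and 1 and 4 in nipnip2. Without a filter its log2 fold change was -1.46 (adjusted p = 0.479, edgeR). bbs-1 had 4 and 4 counts in wt and 3 and 3 in nipnip2, and bbs-8 and bbs-9 had none in any input. Of the wider ciliary list, 19 genes were tested in the inputs, of which none rose and 2 fell, where 1.28% of all tested genes rose and 5.10% fell, with a median of -0.25 against 0.00 for all genes. bbs-4 was at 69.2 ± 2.65 CPM in wt and 11.8 ± 2.74 in nipnip2 (SD, n = 2 each) and fell by 2.50 (SE 0.25, adjusted p = 8.8e-04, edgeR). dyf-2, an IFT-A gene, had 44 and 90 counts in wt and 16 and 10 in nipnip2 and fell by 2.41 (SE 0.39, adjusted p = 0.0082, edgeR), a call lost with microRNA scaling (-0.89). The direction of the list in embryos rests on the scale, as that of all genes does. With microRNA scaling 13 of the 19 were called higher and 1 lower, and 6955 of all 8506 tested genes were higher and 115 lower. The median was then 1.31 for the list and 1.53 for all genes.

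The NRDE3 immunoprecipitate held almost nothing from the members. The 10 genes together had 3 of 10470194 counts in the 2 wt IP libraries and 2 of 6427779 in nipnip2. ift-20 had 0 in all 4 IP libraries, and bbs-5 had 1 and 0 in wt and 0 and 0 in nipnip2. No member passed the filter for nipnip2 against wt in the IP, where 33.5% of 2620 genes were called and 10% of listed protein-coding genes had passed. Of the wider ciliary list 5 genes were tested there, with 2 called higher and 0 lower, beside 265 and 614 of all genes. Their median log2 fold change was 0.69 against 0.19 for all. As a share of all counts in the library, ift-20 was at least 14.7-fold lower in the wt IP than in the wt input, with 3 counts over the 2 IP libraries as the floor, and at least 9.36-fold lower in nipnip2. bbs-5 was at 6.57 CPM of the library totals in the wt input and 0.0955 in the wt IP, from 1 count, and at least 13.7-fold lower in the nipnip2 IP. These shares do not set the members apart: with library totals as the scale, 95.3% of 9249 tested genes were called lower in the wt IP than in input, and 92.9% in nipnip2. With TMM, whose factors differ strongly between inputs and IPs, 24.5% and 30.5% of genes were called and neither ift-20 nor bbs-5 was, with unadjusted p of 0.194 and 0.465 in wt and 0.122 and 0.0399 in nipnip2 (edgeR). Of 21 tested genes of the wider ciliary list, 0 were called higher and 4 lower in the wt IP. In the nipnip2 IP 3 were called higher and 5 lower.

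**Figure D4:**
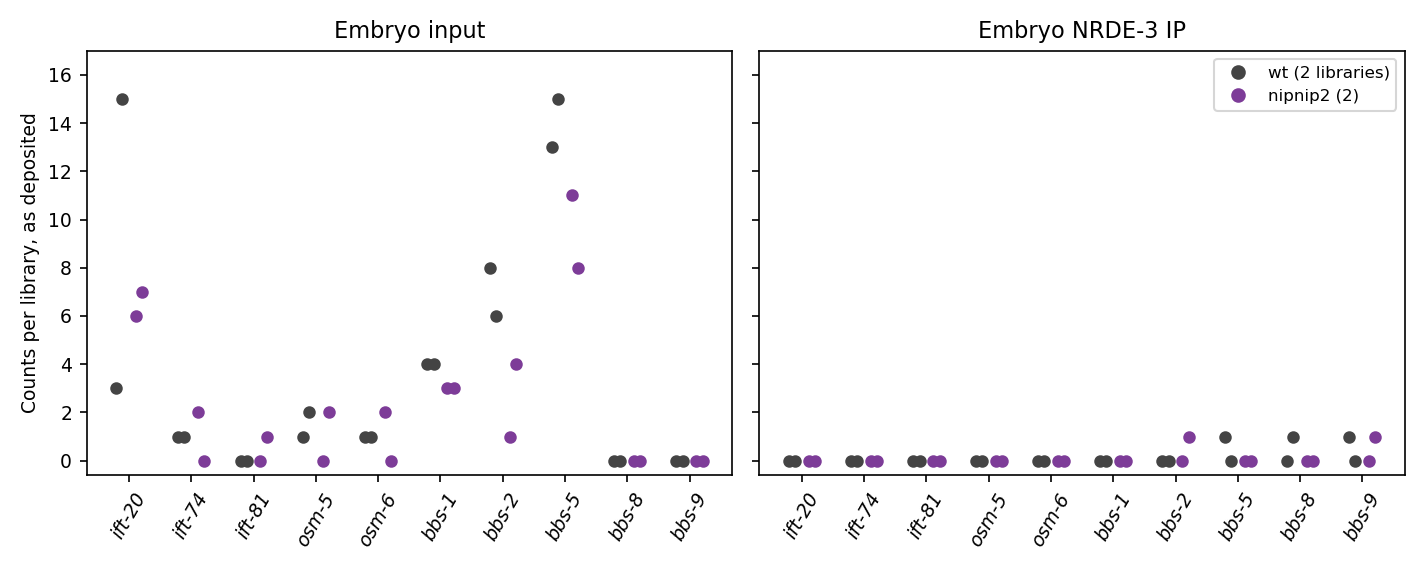
Deposited counts of the 10 members in each embryo input (left) and NRDE3 IP (right) library of wt and nipnip2. No input exceeds 15 counts at any member, and no IP library exceeds 1.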

How the data were processed

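The members, gene lists and tests were chosen with earlier results of these data known. Per the labels' protocols, RNA was extracted with Trizol, treated with DNase and made into libraries with Illumina TruSeq small RNA reagents. Per the submitters' processing notes, cutadapt, STAR, featureCounts and DESeq2 were used with the ce11 build, and versions, strand and counting options are not given in the sources used here. The adult gene table holds estimated counts as deposited, with fractions, which were rounded to whole numbers for tests. The embryo tables hold whole counts as deposited. The names of the embryo columns (wt1, wt2; nip1nip1_1, nip1nip2_2) fit the labels' groups but not their numbers, so they served as unnumbered replicates, except as a block in an alternative fit of IP against input. Repeat-family and RNA-seq tables were not used.

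Tests were edgeR 4.0.16 quasi-likelihood F-tests in R 4.3.3 over all genes (filterByExpr, TMM, Benjamini-Hochberg, called under 0.05), with the 8 adult libraries in one fit, embryo inputs and IPs apart, and both together for IP against input. The SE is the log2 fold change over the root of F. Gene names and positions were taken from RefSeq's WBcel235 annotation and matched by symbol, for 28876 adult and 43720 embryo identifiers. The ciliary, sensory and neuron lists were written from general knowledge, and 1 gene was later taken out of the ciliary list for a reason unrelated to its values and is not reported here. Named were all members, genes overlapping or next to ift-20 and bbs-5, and the 3 genes most like each of these 2 in log2 CPM with a prior count of 2. Outside the IP comparisons, up to 3 called genes per list and direction were also named, where the mean reached 20 counts and the groups do not overlap. Besides these, ags-3 and R31.2 are named for their overlap with members, and gcy-8 as the sensory gene that fell. Alternatives were DESeq2 1.42.0, RLE factors, library totals, microRNA scaling, no filter, a mean of at least 50 counts, only the groups compared, the replicate number as a block and each library left out. The tests were checked on simulated counts.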

Additional observations from a re-analysis of the deposited data

How the results depend on the processing

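At the members, the count of 2 called genes besides ift-20 and bbs-5 (osm-6 and bbs-1) became 1, with bbs-1 kept, in both mutants with DESeq2, library totals, microRNA scaling and the replicate block, and in nip3_qe17 also with no filter and with only the 2 groups compared. In nip2nip3 with no filter it was again 2, but bbs-1 and osm-5, since osm-6 was lost there too (adjusted p = 0.0667, edgeR). It became 0 where a mean of 50 counts was required, which neither gene reaches, and 1 to 2 with 1 library left out. All genes called were 7163 in nip2nip3 and 6135 in nip3_qe17, 4508 and 3935 where a mean of 50 counts was required, and 4435 to 7586 and 3820 to 6244 with 1 library left out. Between the mutants they were 695, and 372 to 657 with 1 library left out. Calls in the ciliary list were 14 to 17 in nip2nip3 and 12 to 14 in nip3_qe17 with 1 library left out, and 9 in nip3_qe17 where a mean of 50 counts was required, against 14. Same-numbered libraries of the 2 mutants correlated at 0.160, -0.005 and 0.115 in their deviations from the group means. Those of wt and nip2nip3 correlated at 0.212 and 0.151, and those of wt and nip3_qe17 at 0.004 and 0.077. The labels do not state that the numbers pair libraries, so they served only as a block in an alternative fit. Whether a number marks a batch was not tested. Between the mutants 1 ciliary gene was called, also with any 1 library left out, 3 with the replicate block and 2 where a mean of 50 counts was required. In embryos, the numbers in the column names, which are not those of the labels, are shared by input and IP; same-named columns correlated at -0.052 in wt and 0.129 in nipnip2, so they were not taken as pairs. With these numbers as a replicate block, IP against input gave 2221 calls in wt and 2734 in nipnip2, with no member called. No paired analysis was possible for nipnip2 against wt because their labels share only 1 number.

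In embryo inputs, 543 genes were called, 1764 with library totals, 7070 with microRNA scaling, 1019 with no filter, 258 with that minimum of 50 counts and 610 to 921 with 1 library left out. Ciliary list calls were 2, then 5, 14 and 1 with library totals, microRNA scaling and the higher minimum, and 2 to 5 with 1 library left out. In the IP, nipnip2 against wt gave 879 calls, 2175 with library totals, 2031 with microRNA scaling, 305 with the higher minimum and 683 to 843 with 1 library left out. For IP against input, wt gave 2265 calls, then 8999, 9011 and 873 and 1380 to 2577, and nipnip2 gave 2820, then 8834, 9027 and 1099 and 1885 to 3021. In both, ift-20 and bbs-5 made 2 called members with library totals or microRNA scaling and 0 otherwise. Among the values of single genes, inpp-4B in nip3_qe17 turned to -0.40 with microRNA scaling. The causes were not tested. Counts of 15 or fewer limit 6 of the 10 members in adults and all of them in embryos.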
